A study of Mus musculus with 12 samples.

Results

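A set of 9 non-receptor genes lies around the class I odorant receptor cluster on mouse chromosome 7: Atg16l2, Nup98, Pgap2, Rhog, Stim1 and Rrm1 before the cluster, and Smpd1, Ilk and Tpp1 towards its far end. They were taken by symbol from the deposited table, where each had a single row, and make up 9 of its 46297 gene rows. The study measured RNA of the olfactory mucosa by sequencing in 12 male mice of strain 129S6;C57BL/6J at postnatal day 30. The 6 wildtype animals were compared with 6 animals carrying a deletion of enhancer A (eA), and the labels name no other allele or treatment in either group. The sources used here do not say whether the deletion was on both chromosomes or how many founder lines were used. Recovered reads summed to between 13011763 and 23039733 per library.

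The class I cluster holds receptor genes that olfactory sensory neurons transcribe singly, under the control of enhancers that act over long distances. The genes at its edges serve general cell functions, among them calcium entry, nucleotide supply, nuclear transport, membrane anchoring, cytoskeletal signalling and lysosomal breakdown, and they are transcribed in many cell types of the mucosa. Such neighbours can be used to ask how far along the chromosome a change in an enhancer is seen. The mice were of mixed strain and the neighbours are linked to the deletion. A change by the deletion therefore cannot be told apart from a strain difference in the linked stretch of chromosome. The samples were whole tissue, so fewer cells of a type and less RNA per cell cannot be told apart.

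The deleted element spans 912 bp of chromosome 7, from 102509701 to 102510612, read as GRCm38. Of the 9 genes, Rrm1 ends closest to it, 39.9 kb before its start, followed by Stim1 at 72.4 kb, Rhog at 254 kb, Pgap2 at 271 kb, Nup98 at 299.5 kb and Atg16l2 at 1207 kb. On the other side Smpd1 begins 3044 kb, Ilk 3226 kb and Tpp1 3234 kb after the element. Those last genes lie after the receptor gene Olfr692, which ends 185 kb before Smpd1. A further receptor gene, Olfr693, begins 923 kb after Tpp1. Receptors were counted as class I by the number in their symbol alone, so whether Olfr693 belongs to the cluster was not tested. The edge of the cluster on the near side is sharp, with 6.81 kb between the end of Rrm1 and the start of the receptor gene Olfr543.

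Most start regions of these genes held more CpG dinucleotides than those of the receptors beside Rrm1, with Tpp1 as the exception. A window of 250 bases before to 50 bases after each annotated start was taken from RefSeq (GRCm38.p6), which held 15 windows for the 9 genes. Pgap2 gave 5 of these, Nup98 2 and Ilk 2, several of them overlapping, so these genes weigh more in each share and median. The windows had between 2 and 44 CpG dinucleotides with a median of 23, against a median of 7 over all 32851 promoter windows of the same length and 1 over 948 odorant receptor windows. The windows of Rrm1, Stim1, Atg16l2, Tpp1 and the start shared by Nup98 and Pgap2 are printed beside that of the receptor gene Olfr544, to show the genes on each side of the boundary and the extremes of the set. All are written 5′ to 3′ on the strand of the gene, with each CpG in capitals.
Rrm1 (chr7:102441445-102441744, plus strand): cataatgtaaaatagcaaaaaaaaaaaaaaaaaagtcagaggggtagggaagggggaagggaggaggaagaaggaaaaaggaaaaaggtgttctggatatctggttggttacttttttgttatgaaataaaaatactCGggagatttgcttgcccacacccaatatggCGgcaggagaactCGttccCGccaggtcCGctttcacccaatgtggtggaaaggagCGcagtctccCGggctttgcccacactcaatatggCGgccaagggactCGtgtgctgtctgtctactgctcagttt
Stim1 (chr7:102267569-102267868, plus strand): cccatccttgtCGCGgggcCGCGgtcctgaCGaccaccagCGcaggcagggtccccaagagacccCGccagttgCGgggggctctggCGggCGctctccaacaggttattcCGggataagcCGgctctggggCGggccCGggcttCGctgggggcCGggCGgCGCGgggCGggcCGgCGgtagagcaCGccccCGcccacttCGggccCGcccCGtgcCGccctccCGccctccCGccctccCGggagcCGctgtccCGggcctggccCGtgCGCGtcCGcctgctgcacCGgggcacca
Pgap2 (chr7:102209923-102210222, plus strand): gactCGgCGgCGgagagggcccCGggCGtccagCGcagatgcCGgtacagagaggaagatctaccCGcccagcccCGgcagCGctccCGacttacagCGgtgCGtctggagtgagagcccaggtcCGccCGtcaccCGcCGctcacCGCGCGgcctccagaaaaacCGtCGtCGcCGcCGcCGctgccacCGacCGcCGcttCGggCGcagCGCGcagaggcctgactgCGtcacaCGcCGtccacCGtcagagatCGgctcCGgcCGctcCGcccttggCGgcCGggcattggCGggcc
Atg16l2 (chr7:101302039-101302338, minus strand): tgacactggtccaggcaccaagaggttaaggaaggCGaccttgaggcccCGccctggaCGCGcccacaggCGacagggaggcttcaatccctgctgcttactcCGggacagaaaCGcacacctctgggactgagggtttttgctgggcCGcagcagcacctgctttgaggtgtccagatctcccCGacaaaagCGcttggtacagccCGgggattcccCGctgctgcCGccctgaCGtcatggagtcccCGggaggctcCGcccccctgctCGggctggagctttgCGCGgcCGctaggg
Tpp1 (chr7:105752186-105752485, minus strand): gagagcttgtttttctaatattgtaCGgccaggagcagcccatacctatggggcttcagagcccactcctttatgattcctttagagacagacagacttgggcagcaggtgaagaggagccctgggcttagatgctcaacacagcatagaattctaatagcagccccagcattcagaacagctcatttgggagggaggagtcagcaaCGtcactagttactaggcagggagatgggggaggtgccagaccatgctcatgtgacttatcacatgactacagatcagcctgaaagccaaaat
Olfr544 (chr7:102488258-102488557, minus strand): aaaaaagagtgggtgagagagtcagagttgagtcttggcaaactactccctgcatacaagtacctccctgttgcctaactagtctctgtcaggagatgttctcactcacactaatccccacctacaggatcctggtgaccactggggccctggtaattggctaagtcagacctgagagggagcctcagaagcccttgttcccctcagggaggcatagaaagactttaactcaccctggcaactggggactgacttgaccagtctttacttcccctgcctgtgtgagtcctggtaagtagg

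Stim1 had 38 CpG in its window, Atg16l2 20 and Rrm1 9, while Tpp1 had 2, as did the receptor gene Olfr545, Olfr543 had 1 and Olfr544 0. Nup98 and Pgap2 face away from each other across this stretch, with their nearest RefSeq starts 7 bases apart, and the Pgap2 window held 44 CpG. The letters GGGCGG, searched on both strands, were found in 80% of the 15 windows, in 35.7% of all promoter windows and in 1.05% of receptor windows. TAATTA, which reads the same on both strands, was in 0 of the 15 windows, in 5.29% of all windows and in 18.6% of receptor windows, but not in that of Olfr543, Olfr544 or Olfr545. The consensus motif of the Ebf factors was in 0 of the 15, in 0.904% of all windows and in 0.527% of receptor windows. TATAAA on either strand was in 13.3% of the 15, which are overlapping Pgap2 windows with the same site, and in 13.6% of all and 41.0% of receptor windows. TATAAA and TAATTA can share letters where they adjoin. These are matches of letters only.

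Without the element, none of the 8 neighbours that could be tested passed the test. Expression was compared with limma on log2(normalized count + 1) over all 19373 genes with a mean normalized count of at least 10, with Benjamini-Hochberg adjustment at 5%. Of all genes tested 0.372% passed, 0.341% as lower and 0.031% as higher, so a count of 0 among 8 is near that background. By edgeR and by DESeq2 on recovered reads the count was also 0, where 0.346% and 0.268% of all genes passed, and 1 member, Atg16l2, had an unadjusted p under 0.05 in each of the 3 tests, against 6.68% of all genes in limma. Log2 changes, deletion over wildtype, ran from -0.38 for Atg16l2 to 0.090 for Tpp1, with a median of 0.063 over the 8 and 0.0087 over all genes tested. Of these, 6 had a positive and 2 a negative estimate. The groups overlapped for each of the 8, while 0.588% of all genes had groups that did not. The reads behind these values ran from 75 for Rhog to 2529 for Nup98 in a library. Ilk was too low to be tested.

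**Figure D1:**
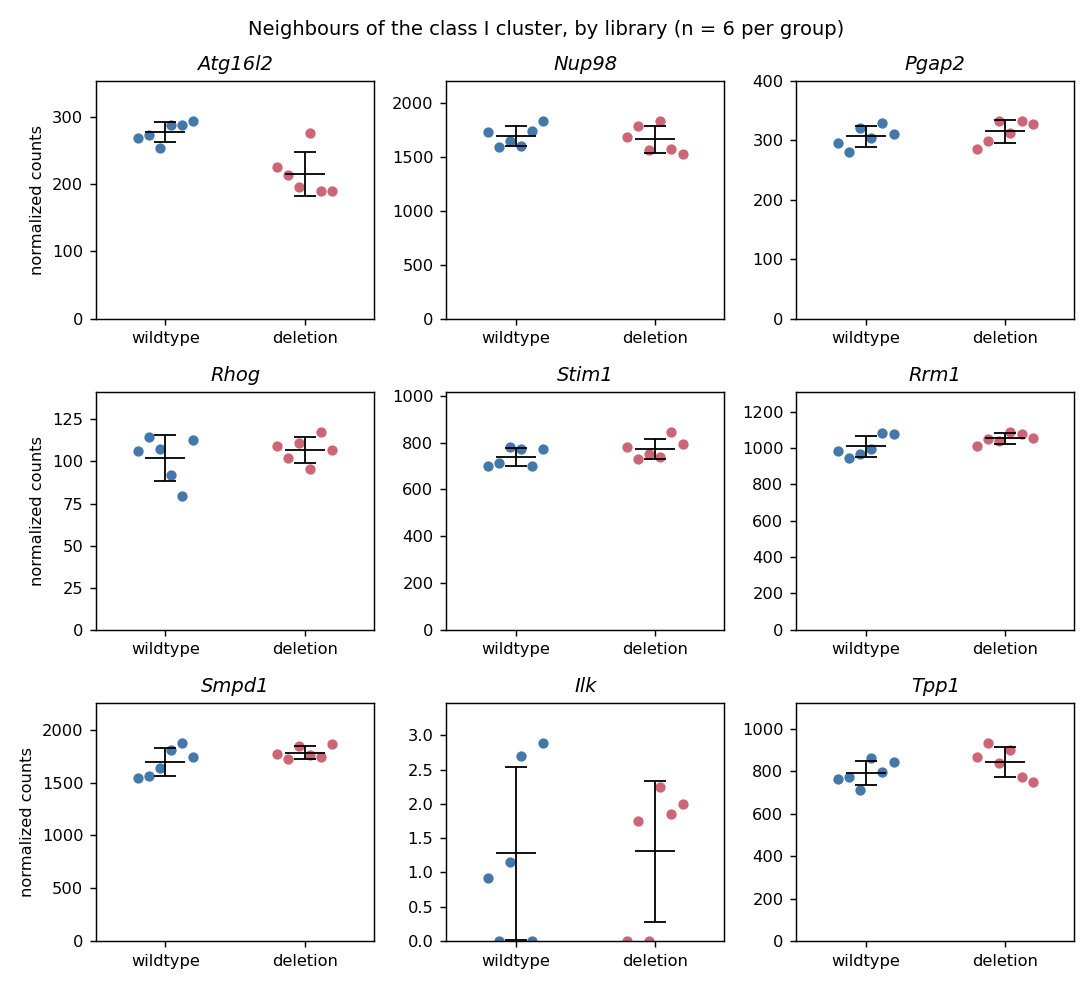
Normalized counts of the 9 genes (vertical axes, each from 0) in wildtype (blue) and deletion (red) libraries; each point is 1 library, and the bars give mean and SD of 6. The groups overlap in every panel, 5 of 6 Atg16l2 values of the deletion lie below the lowest wildtype value of 255, and Ilk stays below 3 throughout.

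Rrm1, the large subunit of ribonucleotide reductase that makes the building blocks of DNA, is the neighbour closest to the element. Its wildtype libraries had 945 to 1082 normalized counts with a median of 989, and its deletion libraries 1008 to 1089 with a median of 1051. The deletion values filled the upper part of the wildtype range, with 1 above it. The means were 1009 ± 57.7 and 1052 ± 28.5 (SD, n = 6 each), a log2 change of 0.062 ± 0.049 (SE, adjusted p 0.80 by limma). The 95% interval of the change ran from -2.86% to 12.2%. A loss of the size seen in the receptors next to it lies far outside that interval.

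Those receptors gave the contrast at the boundary. Olfr543, 6.81 kb from the end of Rrm1, ran from 74.1 to 93.98 normalized counts in wildtype and from 3.99 to 12.97 in deletion libraries, ranges that did not overlap. The log2 level of Olfr543 minus that of Rrm1, taken within each library, was -3.53 ± 0.12 in wildtype and -6.93 ± 0.57 in the deletion (SD, n = 6 each). This difference between the adjacent genes shifted by -3.40 (two-sided exact permutation p 0.002165, the smallest that 924 splits allow). Olfr543 was chosen with its fall already known, so the test describes the contrast and does not discover it. With any 1 library left out the shift was between -3.53 and -3.24.

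Stim1, the sensor of the endoplasmic reticulum that opens calcium channels of the plasma membrane when stores run low, spans 169.5 kb and ends 72.4 kb before the element. It had 699 to 780.1 normalized counts in wildtype with a median of 742, and 730.3 to 846 in the deletion with a median of 766. In all, 3 deletion libraries lay above the highest wildtype library and 3 wildtype libraries lay below the lowest deletion library, yet the ranges overlapped. The log2 change was 0.064 ± 0.055 (adjusted p 0.81 by limma), with an interval from -3.54% to 13.3%.

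Rhog, a small GTPase that acts on Rac through the ELMO and DOCK proteins, had the lowest normalized counts of the neighbours that could be tested, before division by length. Its wildtype libraries ran from 79.2 to 114 normalized counts with a median of 107, and its deletion libraries from 95.3 to 118 with a median of 108. Wildtype library 5 was the lowest of all 12, and the groups covered much the same range. The log2 change was 0.077 ± 0.11 (adjusted p 0.88 by limma). At 75 to 156 reads per library its interval was the widest of the 8, from -9.99% to 23.6%.

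Nup98 and Pgap2, the pair that share a start region, were both within the spread between libraries. Nup98, the precursor of the nuclear pore proteins Nup98 and Nup96, had 1590.2 to 1828 normalized counts in wildtype with a median of 1684, and 1522 to 1833 in the deletion with a median of 1628. In all, 3 deletion libraries were below the lowest wildtype library and 1 was above the highest. Its log2 change was -0.026 ± 0.058 (adjusted p 0.93 by limma), with an interval from -9.87% to 7.01%.

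Pgap2, which takes part in remodelling the lipid of GPI anchors on their way to the cell surface, had 281 to 329 normalized counts in wildtype with a median of 307. In the deletion it had 285 to 333 with a median of 320.1, so the ranges nearly coincided. Its log2 change was 0.038 ± 0.065 (adjusted p 0.90 by limma). An unnamed transcript on the same strand, AC139579.1, shares 13.4% of its exon bases, so part of its count is less certain.

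On the far side, Smpd1 encodes acid sphingomyelinase, the lysosomal enzyme that splits sphingomyelin into ceramide and phosphocholine. It had 1541 to 1877 normalized counts in wildtype with a median of 1691, and 1727 to 1869 in the deletion with a median of 1767. All 6 deletion libraries were above the wildtype mean of 1695 ± 136, but none above the highest wildtype library. The log2 change was 0.079 ± 0.055 (adjusted p 0.796 by limma), with an interval from -2.68% to 14.6%.

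Tpp1 encodes tripeptidyl peptidase 1, a lysosomal protease whose loss in humans causes a form of neuronal ceroid lipofuscinosis. Wildtype libraries had 709.8 to 862 normalized counts with a median of 786, and deletion libraries 751 to 934 with a median of 853. In all, 3 deletion libraries exceeded the highest wildtype library, while deletion libraries 5 and 6 stayed below the wildtype mean. The log2 change was 0.090 ± 0.066 (adjusted p 0.80 by limma), with an interval from -3.44% to 17.3%.

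**Figure D2:**
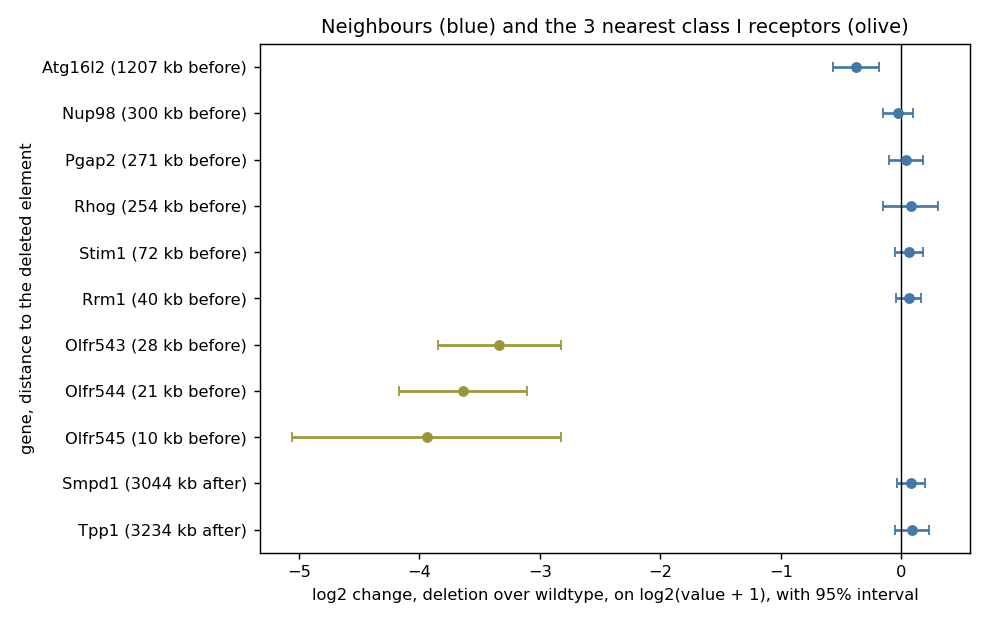
Log2 change, deletion over wildtype, on log2(normalized count + 1) (horizontal axis) with its 95% interval from limma, for the 8 tested neighbours (blue) and the 3 receptor genes nearest to the element (olive), in chromosomal order with the distance in kb. The neighbours sit between -0.38 and 0.090, and the receptors, whose loss was known when they were chosen, at -3.34 and lower.

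Atg16l2 stood apart from the other 7 in the size of its estimate. The protein is a relative of Atg16l1, which helps attach lipid to the LC3 proteins during formation of autophagosomes. Its normalized counts were 269, 273, 255, 288, 288 and 295 in wildtype libraries 1 to 6. In deletion libraries 1 to 6 they were 226, 214, 195, 276, 191 and 191. In all, 5 deletion libraries were below every wildtype library, and deletion library 4 alone lay inside the wildtype range. The means were 278 ± 15.04 and 215 ± 32.8 (SD, n = 6 each).

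The log2 change of Atg16l2 was -0.38 ± 0.091, or -23.0%, with an interval from -32.7% to -12.0%. Its unadjusted p of 0.00081 ranked 87 among the 19373 genes, and after adjustment over all of them it did not pass (adjusted p 0.18 by limma, 0.183 by edgeR and 0.0848 by DESeq2). In the authors' deposited table it had a log2 fold change of 0.28 for wildtype over deletion with an adjusted p of 0.0555. DESeq2 on recovered reads gave -0.37 ± 0.10 (SE) for deletion over wildtype, with an unadjusted p of 0.000245. The deposited unadjusted p was 0.000244, so the deposited fold change is on a smaller scale and does not mean a weaker effect. Of the genes to which the authors' deposited table gives an adjusted p, 0.43% were under 0.05, and none of the neighbours was; Ilk has none there. Without deletion library 4 it passed, with a log2 change of -0.45 and an adjusted p of 0.0092, where 0.371% of genes passed. It also passed with the log2 value of the satellite gene Gm10800 as a covariate (-0.503, adjusted p 0.0258), where 0.315% of genes passed. Without the 4 libraries with over 1% of their signal in that gene it did not (-0.34, adjusted p 0.9998). The estimate was negative under every setting run, and its adjusted p ranged from 0.0092 to 0.9998.

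**Figure D3:**
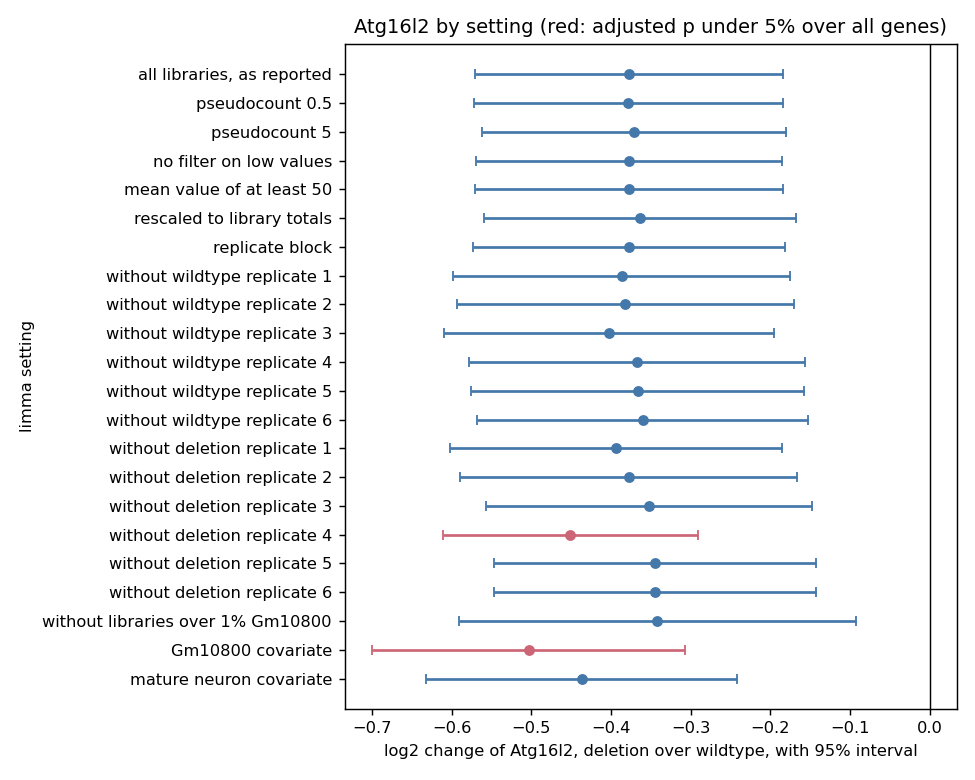
Log2 change of Atg16l2, deletion over wildtype (horizontal axis), with its 95% interval under each limma setting; red marks an adjusted p under 5% over all genes. Every point lies between -0.503 and -0.34, and the settings that passed are the fit without deletion library 4 and the fit with the Gm10800 covariate.

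Atg16l2 lies farther from the element than the 5 other neighbours on that side, and genes around it gave no like estimate. Fchsd2, whose gene overlaps it by 25 exon bases on the opposite strand, had 328 ± 40.3 in wildtype and 361 ± 36.2 in the deletion (log2 change 0.14, adjusted p 0.78 by limma). Arap1 and Stard10, a regulator of small GTPases and a lipid transfer protein, had log2 changes of 0.044 and 0.030. These genes were named after their values were seen. Within the groups, the gene whose log2 values followed those of Atg16l2 most closely was Stk36 on chromosome 1 (Pearson's r 0.96, Spearman's coefficient 0.94 over the 12 libraries, after subtracting group means), which itself had 436 and 419 normalized counts in the groups. The next was Ttll4, also on chromosome 1, with r 0.92. These values describe the libraries and share their depth and tissue makeup.

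Markers of cells in the tissue were set beside Atg16l2. The summed normalized counts of 6 microvillar and ciliated cell markers were 7951 to 8967 in wildtype and 6629 to 9081 in the deletion. Of the 6, 0 passed and 1 had an unadjusted p under 0.05 in limma. The sums of 14 immune markers were 2845 to 4395 and 3423 to 4332. Of these, 11 were tested, 0 passed and 1 had an unadjusted p under 0.05 in limma. The leukocyte gene Ptprc had 284 ± 27.4 and 248 ± 34.7 (log2 change -0.20, adjusted p 0.74 by limma), while 8 of the 11 had positive estimates (median 0.109). Erythroid markers were lower in estimate in 5 of 5 genes (median -0.55), with 0 passing and 3 at an unadjusted p under 0.05, and their sums were 335 to 922 in wildtype and 269 to 667 in the deletion. Hba-a1, an alpha globin gene whose reads are uncertain because of its near-identical copy Hba-a2, had 282 ± 93.4 and 194 ± 67.7 (-0.55, adjusted p 0.74 by limma). Endothelial markers were positive in 5 of 5 genes (median 0.22), with 0 passing and sums of 802 to 1254 and 860.0 to 1435. None of the markers in these 4 lists was at 0 in all libraries. The part of these cell types in the Atg16l2 values was not tested.

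Ilk, described as a housekeeping gene, had almost no counted reads in any library. It encodes integrin-linked kinase, an adaptor at integrin adhesions found in most cells, yet its normalized counts were 0.925, 0, 1.15, 2.70, 0 and 2.89 in wildtype libraries 1 to 6. In the deletion they were 0, 1.76, 0, 2.24, 1.85 and 1.997. These are 0 to 4 reads per library, so no difference was detectable at this depth (means 1.28 ± 1.27 and 1.31 ± 1.03, exact permutation p 0.87, n = 6 each).

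The annotation places Ilk between genes on the opposite strand. Taf10, a subunit of the general transcription factor TFIID, covers 76.7% of the exon bases of Ilk and Rrp8 covers 12.9%, which leaves 10.3% free of any other exon. The other 8 genes kept between 86.6% and 100% of their exon bases free. Taf10 averaged 588 ± 53.6 and 584 ± 36.0 normalized counts, wildtype given first, and Rrp8, a nucleolar methyltransferase, 347 ± 12.7 and 336 ± 40.1, so the stretch as a whole was not silent. Partners of the Ilk protein were present: Parva, the parvin that binds it, had 3529 ± 259 in wildtype and 3748 ± 179 in the deletion (log2 change 0.089, adjusted p 0.78 by limma).

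Across the whole table, low values were more frequent in genes with more such overlap, with the exception of the genes that had none. Among protein-coding genes other than odorant and vomeronasal receptors, 22 had under 15% of their exon bases free of exons on the opposite strand, and 20 of these (90.9%) had a mean normalized count under 10. The share was 50% of 30 genes at 15 to 30% free, 29.7% of 101 at 30 to 50%, 18.5% of 767 at 50 to 80% and 9.55% of 4159 at 80% to under 100%. Of the 14425 genes with no such overlap 27.5% were under 10. The library kit keeps strand, per the labels' protocols, but the sources used here do not give the strand setting of the counting. Whether the value of Ilk reflects how much Ilk RNA the tissue held was not tested.

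**Figure D4:**
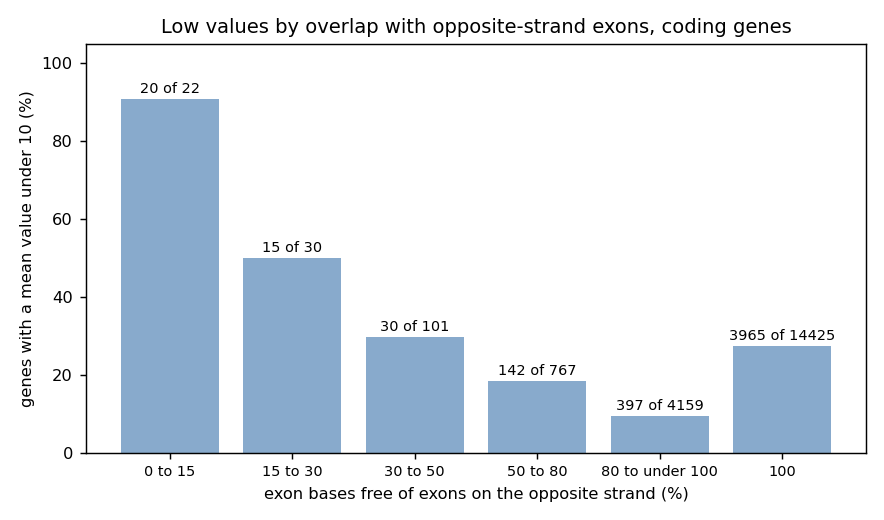
Share of protein-coding genes with a mean normalized count under 10 (vertical axis, %) by the share of their exon bases free of exons on the opposite strand (horizontal axis, %), with counts of genes above the bars. The share is 90.9% in the class that holds Ilk and 9.55% in the class from 80% to under 100%.

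Levels of the 9 genes were compared after division by the summed length of all annotated exons of each gene, with shared bases counted once. In wildtype, Smpd1 was highest at 508 ± 40.6 normalized counts per kb of exon, followed by Tpp1 at 153 ± 10.8, Nup98 at 134 ± 7.35, Rrm1 at 91.6 ± 5.24, Rhog at 71.8 ± 9.66, Stim1 at 71.3 ± 3.77, Pgap2 at 67.7 ± 3.83, Atg16l2 at 32.8 ± 1.78 and Ilk at 0.466 ± 0.462 (SD, n = 6). Rhog, Stim1 and Pgap2 did not differ beyond their spread, and the ranges of Tpp1 and Nup98 overlapped, although Tpp1 was the higher of the pair in 6 of 6 libraries. The other neighbours in this order had ranges that did not overlap. The length used can exceed that of the transcripts present, so the order depends on the annotation. It was not tested as an order of transcript level.

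Several of the tested neighbours were steady between animals of a group, set against tested genes of all levels. The within-group SD of the log2 value was 0.064 for Rrm1, 0.078 for Stim1, 0.087 for Pgap2, 0.088 for Smpd1 and 0.096 for Nup98, each among the steadiest 12% of all tested genes. Tpp1 followed with 0.113. Rhog and Atg16l2 had 0.162 and 0.156, near the middle of all genes, where the median SD was 0.186. By mean level among tested genes, Pgap2 stood at percentile 54.8, Stim1 at 73.3, Rrm1 at 79.8, Nup98 at 88.3 and Smpd1 at 88.995. Rhog stood at 35.95 and Atg16l2 at 50.3. The SDs were not compared with those of genes at a like level, so the part of level in them was not tested. After subtracting group means, the 28 pairs of members had correlations across the 12 libraries from -0.63 to 0.75 with a median of 0.047.

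Each member had its own closest genes by this measure, and none of these genes passed the test. Rrm1 was followed most closely by P4ha1 (Pearson's r 0.96, Spearman's coefficient 0.97) and Mob1a, Stim1 by Gfm1 (r 0.88, Spearman's 0.90) and the trace amine receptor gene Taar4, and Nup98 by Vamp3 (r 0.92, Spearman's 0.80) and Ptpn1. Pgap2 was followed by Tceal9 (r 0.96, Spearman's 0.99) and Prps2, and Rhog by Ubap2 (r 0.93, Spearman's 0.94) and Rftn2. Smpd1 was followed by Cyp1a2 (r 0.92, Spearman's 0.87), a cytochrome P450, and C1qb, a complement gene of macrophages, and Tpp1 by Bod1l (r 0.91, Spearman's 0.87) and the receptor gene Olfr572. Each was the best of all tested genes over only 12 libraries, so these names are descriptions.

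Other non-receptor genes beyond the edges were read from lists of 30 genes before and 25 genes after the cluster. Of these, 24 and 16 were tested, 0 passed in limma, edgeR or DESeq2, and 0 had an unadjusted p under 0.05 in limma. The median log2 change was 0.029 in each list. Of the listed genes, the nearest tested before the element was Chrna10, a nicotinic receptor subunit 393 kb away. It had 20.6 ± 3.71 against 21.2 ± 2.32 normalized counts, wildtype given first. The nearest listed and tested gene after the element was Fam160a2 at 2861 kb, with 789 ± 51.9 and 755 ± 93.2. Cnga4, a subunit of the olfactory transduction channel that lies 2894 kb after the element, had 5076 ± 671 and 5615 ± 237 (log2 change 0.15, adjusted p 0.74 by limma, unadjusted 0.054).

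The pathways in which the members act were followed through lists of their partner genes. Together with the flanking lists these made 12 lists with 235 tested genes, of which 0 passed in limma and in edgeR, 1 passed in DESeq2, and 10 had an unadjusted p under 0.05 in each. For store-operated calcium entry, 6 of 11 genes had a positive estimate (median 0.046). Stim2, a related sensor, had 1283 ± 30.2 in wildtype and 1364 ± 83.5 in the deletion, and Orai3, a channel subunit, 358 ± 45.6 and 411 ± 37.5 (log2 change 0.21, adjusted p 0.74 by limma).

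For deoxynucleotide supply, 9 of 12 estimates were positive (median 0.057). The mitochondrial thymidine kinase gene Tk2 had the smallest p, with 436 ± 47.9 and 507 ± 41.0 (log2 change 0.22, adjusted p 0.69 by limma). Rrm2b, an alternative small subunit that pairs with Rrm1, had 921 ± 44.3 and 1009.9 ± 74.0 (0.13, adjusted p 0.74). Among nuclear pore genes 13 of 25 were positive (median 0.00036), with Nup62 at 384 ± 31.5 and 444 ± 18.5 (0.21, adjusted p 0.49) and Nup160 at 655 ± 30.6 and 595 ± 67.2 (-0.14, adjusted p 0.74).

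GPI anchor genes had 18 of 25 positive estimates (median 0.060), with Pigl at 69.8 ± 11.6 and 85.0 ± 6.15 (log2 change 0.29, adjusted p 0.73 by limma). Small GTPases and partners of RhoG had 15 of 24 (median 0.020), with Rac3 at 379 ± 30.3 and 429 ± 29.5 (0.18, adjusted p 0.70). The autophagosome conjugation genes, the pathway of Atg16l1, had 17 of 22 (median 0.055). Map1lc3a, which encodes an LC3 protein, had 1541 ± 229 and 1802 ± 86.1 (0.24, adjusted p 0.69), an estimate opposite in sign to that of Atg16l2. The integrin-linked kinase complex had 9 of 18 (median 0.012), with Src at 948 ± 58.0 and 1022 ± 62.6 (0.11, adjusted p 0.75).

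Estimates in the lysosomal lists were mostly positive, like those of Smpd1 and Tpp1, but none passed. In sphingolipid breakdown 19 of 20 were positive (median 0.061) and in lysosomal storage and proteolysis 22 of 23 (median 0.081), against 52.6% of all tested genes. Without the 4 libraries over 1% Gm10800 the counts were 12 of 20 (median 0.033) and 17 of 23 (median 0.037), and with the mean of the mature neuron markers as a covariate 14 of 20 and 16 of 23. Arsa, which encodes arylsulfatase A, had 345 ± 46.8 and 378 ± 20.7 (log2 change 0.14, adjusted p 0.77 by limma), and Ctsb, which encodes the protease cathepsin B, 8025 ± 815 and 8743 ± 366 (0.13, adjusted p 0.75). Genes measured in one set of libraries vary together, so these counts carry no test. Immune markers, whose cells are rich in lysosomes, had 8 of 11 positive estimates. Without those 4 libraries they had 3 of 10 (median -0.057), and without wildtype library 3 their median was 0.0045, and their part in the lysosomal values was not tested.

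Common reference genes served as a comparison for a housekeeping pattern. Of 15, 9 were positive and 6 negative (median 0.024) and 0 passed in limma.

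The tissue carried the markers of olfactory mucosa in both groups. Omp of mature neurons averaged 60400.3 ± 6696 in wildtype and 63115 ± 5927 in deletion libraries, as normalized counts, Gap43 of immature neurons 1788 ± 271 and 1783 ± 295, Krt5 of basal cells 432 ± 92.3 and 457 ± 69.1, and Cyp2g1 of supporting cells 61192 ± 5946 and 65930 ± 5662. Of the 7 supporting and gland cell markers, 5 had positive and 2 negative estimates. In limma 0 of them passed and 2 had an unadjusted p under 0.05. Unlike Cyp2g1, their summed normalized counts had a lower median in the deletion, 87959 against 103737 in wildtype. The sums ran from 79320 to 107502 and from 80544 to 123569, so they overlapped. In 4 libraries, wildtype 2 and 3 and deletion 3 and 6, the satellite gene Gm10800 took 2.78% to 7.80% of the signal, against at most 0.885% in the others. Without these 4, estimates of the 8 members ranged from -0.34 to 0.13, 0 passed, and that of Pgap2 changed sign (-0.011).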

How the data were processed

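Stranded, ribodepleted RNA libraries, 1 per animal, were made from 6 wildtype and 6 deletion mice, per the labels' protocols. STAR 2.6.0, DESeq2 (no version) and GRCm38.p6 are named in the submitters' processing notes; the sources used here give no counter, annotation or strand setting.

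The authors deposited 1 table. It holds a normalized count per gene and library, a signal equal to reads over a size factor, per the file headers. Beside it stand the authors' log2 fold change (wildtype over deletion) and its error, a Wald-type score, and raw and adjusted p-values. Whole reads were recovered from the steps of low values: 100% of values up to 5000 reads came out whole within 0.01. No 2 libraries were identical. The labels list 12 animals, so spread between libraries includes that between animals.

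The planned test allowed raw or normalized counts; as the table is normalized, limma 3.58.1 (R 4.3.3, mean-variance trend, no covariates) compared log2(value + 1) over genes averaging at least 10, adjusted over all genes. This scale understates changes of low genes. Alternatives were edgeR 4.0.16 and DESeq2 1.42.0 on recovered reads, other pseudocounts, filters and scalings, covariates, a replicate block and leaving out libraries. The fits were tested on simulated counts. Positions came from GENCODE M21 (GRCm38), matched for 99.8% of rows, and start regions from RefSeq GRCm38.p6.

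The members and lists were chosen with earlier results of these data known. Genes named are the members, the nearest tested flanking genes, the 1 or 2 smallest p of each list, the 2 closest genes per member, the first marker of a list, and Olfr543 to Olfr545. Fchsd2, Arap1, Stard10, Cnga4, Taf10, Rrp8 and Parva lie outside this rule and were chosen after their values were seen. Some listed genes are not reported here by name.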

Additional observations from a re-analysis of the deposited data

Results flagged for a closer look

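Groups of 6 libraries were searched for a highest or lowest value standing off from the rest by more than Dixon's 95% critical value allows; chance does this in about 1 of 20 groups. Over the 9 neighbours, Taf10, Rrp8 and the receptors Olfr543 to Olfr545, 28 groups were examined and 1 held such a library. It was Olfr545 in deletion library 6, at 3.99 normalized counts, where the other 5 deletion libraries had 0 to 1.14, a gap of 0.714 of the whole range. No neighbour gene was flagged: deletion library 4, which stood apart for Atg16l2 at 276, did not reach that gap.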

How the results depend on the processing

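Each neighbour's estimate kept its direction and its side of the threshold under the settings run, with these exceptions. Without the libraries over 1% Gm10800 the estimate of Pgap2 was -0.011. Atg16l2 passed with the Gm10800 covariate (-0.503), and the count of members passing was then 1. Many small estimates moved by more than 1.5 times, and the following are examples. Smpd1 was 0.011, Rrm1 0.030 and Nup98 -0.0048 without the libraries over 1% Gm10800. Tpp1 was 0.0070, Nup98 -0.11, Pgap2 0.073 and Rrm1 0.034 with the Gm10800 covariate. Rhog was 0.17, Tpp1 0.038 and Smpd1 0.043 with the mature neuron covariate. Without the libraries over 1% Gm10800 the list medians were -0.018 for small GTPases, -0.030 for the integrin-linked kinase complex and -0.032 for reference genes, and that of nuclear pore genes was -0.065 with the Gm10800 covariate. With 1 library left out at a time, log2 changes ranged from 0.038 to 0.080 for Stim1, 0.044 to 0.083 for Rrm1, -0.056 to -0.0020 for Nup98, 0.013 to 0.066 for Pgap2, 0.0071 to 0.11 for Rhog, -0.45 to -0.34 for Atg16l2, 0.052 to 0.11 for Smpd1 and 0.059 to 0.12 for Tpp1. The count of members passing was 0 to 1, the 1 being Atg16l2 without deletion library 4, and that of all genes 61 to 79. The Ilk difference of means ranged from -0.22 to 0.35 normalized counts. Over all genes 72 passed, and 40 did with a mean value of at least 50, where fewer genes were tested. Among the listed genes, 0 to 1 passed with 1 library left out (1 without wildtype library 1) and 1 in DESeq2. The causes were not tested.

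The groups share the numbers 1 to 6 in the sample titles, with nothing to say that a number marks a shared litter or day. Deviations of same-numbered libraries correlated between -0.15 and 0.36, and 0 of 6 numbers were each other's closest match. Wildtype library 3 had deletion library 3 as its closest, but not the reverse. With 6 libraries per group these values cannot exclude a shared litter or day, and the main test used no pairing. With the numbers as a replicate block 71 genes passed, members passing stayed at 0 and Atg16l2 had an adjusted p of 0.227 by limma. Obp1a, a marker of gland cells, then passed (-1.35). Ilk had at most 4 reads per library, too few to compare the groups, and Rhog had the widest interval.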
